A study of Rattus norvegicus with 9 samples.

Results

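Bile acids are made from cholesterol in hepatocytes, and the genes examined here are the enzymes of that route together with 2 nuclear receptors that restrain it. They are 10 genes, chosen by name: Cyp7a1, Cyp8b1, Cyp27a1, Cyp7b1, Hsd3b7, Acox2, Slc27a5, Baat, Nr1h4 and Nr0b2. The array annotation gave each of them 1 probe set, so 10 of the 31042 probe sets and 10 of the 14217 named genes on the array are described, and all 10 passed the filter on low signals that kept 18625 probe sets.

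The livers came from male Goto-Kakizaki (GK) rats, an inbred strain that becomes diabetic without treatment, and every rat, controls included, was diabetic before the groups were drawn. CUMS 1–3 and CUMS 4–6 had been through 8 weeks of chronic unpredictable mild stress (CUMS), a schedule of changing daily stressors used to model depression. The labels give the symptom of CUMS 1–3 as major depression, that of CUMS 4–6 as mild depression and that of control 1–3 as undepression, and each group held 3 rats with 1 array per rat. All rats had received the glucose-lowering drug repaglinide by gavage for a pharmacokinetic experiment. They arrived at an age of 5 weeks, were kept for 7 weeks until diabetes appeared and then spent 8 weeks under stress or normal feeding. The CUMS rats were housed 1 to a cage, which cannot be told apart from the stressors, and the number of controls per cage is not given in the sources used here. One of the stressors was an inversion of day and night. The time of day at which the livers were taken is not given in the sources used here.

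In the classic route, CYP7A1 carries out the first and rate-limiting step, the 7α-hydroxylation of cholesterol, HSD3B7 then changes the ring, CYP8B1 sets the share of cholic acid, and CYP27A1 begins to shorten the side chain. In the alternative route, CYP27A1 acts first and CYP7B1 follows. ACOX2 shortens the side chain further in peroxisomes, and SLC27A5 and BAAT join the bile acid to coenzyme A and then to glycine or taurine. NR1H4 (FXR) is the receptor that bile acids themselves activate, and NR0B2 (SHP), one of its target genes, is a repressor that acts on Cyp7a1 and Cyp8b1. CYP7A1 is known to follow feeding and the time of day.

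The array of control 3 differed from the rest. It had a median r of 0.951 to the remaining arrays, which reached 0.965 to 0.972 themselves, and its connective tissue and bile duct markers were high. The summed signal of 11 markers of stellate cells and fibroblasts was 5346 to 8314 in the 6 CUMS livers and 8619 to 32568 in the controls, with the highest value in control 3. The summed signal of 5 bile duct markers spanned 919 to 1702 in the CUMS livers and 1243 to 10256 in the controls. Most of the 10256, in control 3, came from 1 gene, Spp1, which read 7740 there and 181 and 167 in control 1 and control 2. Hepatocyte markers were high in every liver, with summed signals of 11 genes from 232825 to 297167 in CUMS rats and from 228152 to 270872 in controls, as the label of liver requires. In tissue RNA, fewer hepatocytes and less RNA per hepatocyte cannot be told apart. The 3′ to 5′ ratio of the beta-actin control probe sets, a sign of RNA quality that is higher in degraded RNA, was 3.18 to 5.23 in the CUMS livers, with the highest values in CUMS 2 (5.23) and CUMS 4 (4.96), and 2.51 to 3.66 in the controls, with the lowest in control 3. The same ratio for GAPDH was 1.32 to 1.75 in the CUMS livers, again highest in CUMS 2 (1.75) and CUMS 4 (1.46). In the controls it was 1.33 to 1.34 and did not set control 3 apart.

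Of all 10 genes, Slc27a5 was the one whose signals separated the stressed from the unstressed rats. Slc27a5 encodes the liver enzyme that activates bile acids with coenzyme A before conjugation. Its signal was 22639.5, 24441 and 22048 in CUMS 1–3, 24849, 23957 and 28333 in CUMS 4–6, and 20933, 19284 and 17282 in control 1–3. All 6 CUMS livers read above all 3 control livers. The mean was 23043 ± 1246 in CUMS 1–3, 25713 ± 2313 in CUMS 4–6 and 19166 ± 1829 in control 1–3 (SD, n = 3 per group).

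Across all probe sets the difference in Slc27a5 did not pass. Its log2 fold change was 0.27 in CUMS 1–3 (95% interval 0.05 to 0.49, adjusted p = 0.732 from limma), which is 1.21 times the control level. In CUMS 4–6 it was 0.42 (95% interval 0.20 to 0.65, adjusted p = 0.744 from limma), or 1.34 times. In all 6 CUMS rats it was 0.35 (95% interval 0.15 to 0.54, adjusted p = 0.463 from limma). The exact permutation test of this single gene over the 84 ways to assign 6 and 3 rats gave p = 0.0238, two-sided and not adjusted, which is the smallest it can give. Any gene with all 6 CUMS livers above all 3 controls gives this value, so it restates the separation above. The test was run on each of the 10 genes. Besides Slc27a5, Cyp27a1 and Cyp7b1, its exact permutation p lay between 0.238 (Hsd3b7) and 0.976 (Cyp8b1). Without control 3 the log2 fold change was 0.20 in CUMS 1–3, 0.35 in CUMS 4–6 and 0.27 over all CUMS rats.

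Cyp27a1, the mitochondrial enzyme of the side chain and the entry to the alternative route, ran close to Slc27a5. Its signal was 8019, 9889 and 8687.5 in CUMS 1–3, 9134, 9082 and 11854 in CUMS 4–6, and 8635, 7541 and 6704 in control 1–3. The CUMS 4–6 livers all lay above the controls, whereas CUMS 1 lay below control 1. The log2 fold change was 0.22 in CUMS 1–3 (95% interval −0.08 to 0.52, adjusted p = 0.792 from limma) and 0.39 in CUMS 4–6 (95% interval 0.09 to 0.69, adjusted p = 0.744 from limma). Over all CUMS rats the log2 difference of 0.30 gave p = 0.0476 in the exact permutation test, two-sided and not adjusted. Without control 3 the log2 fold changes were 0.13 and 0.30.

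**Figure D1:**
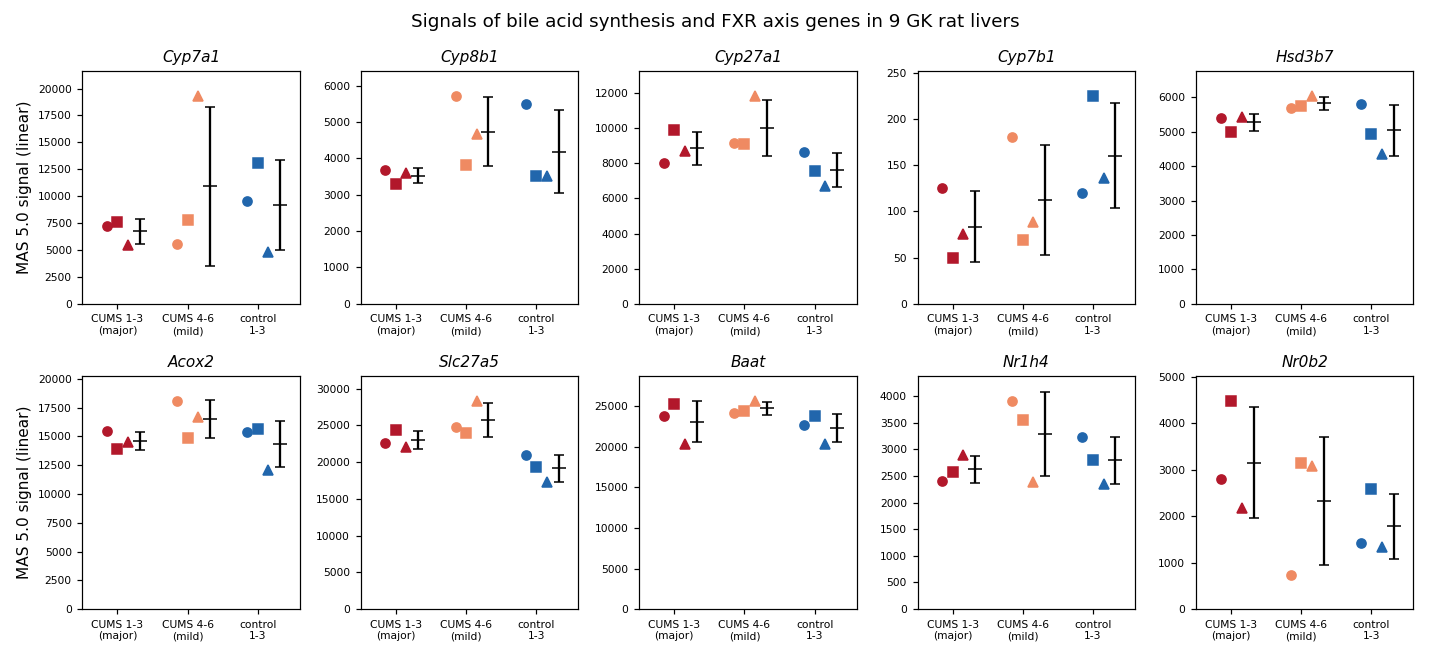
MAS 5.0 signal (linear axis, units set by the authors' scaling) of each of the 10 genes in CUMS 1–3, CUMS 4–6 and control 1–3, 1 point per rat. A horizontal line marks the group mean and bars mark the SD within the group. Slc27a5 is the gene in which all 6 CUMS livers lie above all 3 controls, and Cyp7a1 shows the single high CUMS 6 liver at 19331.

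Over the 9 rats, Cyp27a1 and Slc27a5 varied together. Pearson's r between their log2 signals was 0.944 (exact permutation p = 0.000391, adjusted p = 0.0176 over 45 pairs) and Spearman's rho was 0.933 (exact permutation p = 0.00075, adjusted p = 0.0337). After leaving out CUMS 6 and control 3, the rats farthest from the Cyp27a1 median, r was 0.823. It was 0.91 without control 3 alone. With the group means removed it was 0.942. Of the 45 pairs, 36 had a positive r, 9 had an unadjusted p under 0.05 and this pair alone passed after adjustment. RNA quality and the makeup of the tissue, which also differed between these livers, are shared by all genes of an array, and their part in the relation was not tested.

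**Figure D2:**
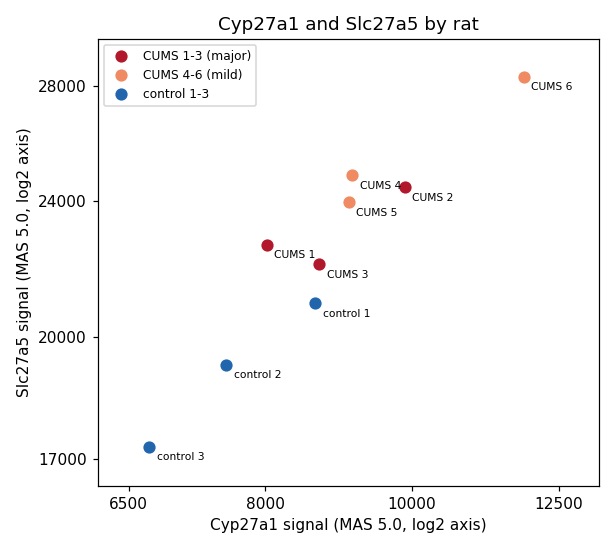
MAS 5.0 signal of Slc27a5 against that of Cyp27a1 (log axes), 1 point per rat, coloured by group. CUMS 6 lies at the upper right with 28333 and 11854 and control 3 at the lower left with 17282 and 6704, and the other rats fall between them.

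The promoter windows of the pair are shown because their signals moved together, and that of Nr0b2 because it is the FXR target gene whose signal spread the most. Each is 300 bases around a RefSeq start site in the GRCr8 assembly, printed from 5′ to 3′ on the gene's strand, and matches to the searched motifs stand in capitals. They lie at chr9:83713282-83713581 on the + strand (Cyp27a1), chr1:82699286-82699585 on the − strand (Slc27a5) and chr5:151062910-151063209 on the + strand (Nr0b2). The annotated Cyp27a1 gene begins at 83712402, so its window lies inside the gene, around a start site downstream of that end.
Cyp27a1: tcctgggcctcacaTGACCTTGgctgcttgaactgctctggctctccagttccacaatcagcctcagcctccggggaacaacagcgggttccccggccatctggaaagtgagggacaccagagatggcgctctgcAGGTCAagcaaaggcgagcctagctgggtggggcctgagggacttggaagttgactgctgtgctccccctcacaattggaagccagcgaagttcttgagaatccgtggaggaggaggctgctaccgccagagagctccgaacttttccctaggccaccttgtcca
Slc27a5: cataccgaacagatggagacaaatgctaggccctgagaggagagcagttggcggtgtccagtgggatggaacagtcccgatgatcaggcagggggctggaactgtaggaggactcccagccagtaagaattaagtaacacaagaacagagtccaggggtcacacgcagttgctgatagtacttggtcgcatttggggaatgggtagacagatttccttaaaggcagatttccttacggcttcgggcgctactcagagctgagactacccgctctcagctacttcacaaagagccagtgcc
Nr0b2: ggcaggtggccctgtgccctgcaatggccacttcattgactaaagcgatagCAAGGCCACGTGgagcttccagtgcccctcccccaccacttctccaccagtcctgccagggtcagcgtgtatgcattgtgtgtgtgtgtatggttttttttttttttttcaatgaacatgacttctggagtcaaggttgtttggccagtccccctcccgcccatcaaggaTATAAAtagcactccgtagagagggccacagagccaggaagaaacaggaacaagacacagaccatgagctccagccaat

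RefSeq gave such a window for 7 of the 10 genes. The motifs searched, on both strands, were the nuclear receptor half-site AGGTCA, CAAGGTCA and CAAGGCCA of NR5A2 and its relatives, the FXR inverted repeat (AGGTCA, any base, TGACCT), the D boxes TTATGTAA and TTATGCAA, TATAAA and the E box CACGTG. Matches lay in 2 of the 7 windows. In Cyp27a1 these were AGGTCA on the + strand and CAAGGTCA on the − strand, which itself holds a second AGGTCA. In Nr0b2 these were CAAGGCCA, whose last bases open a CACGTG, and TATAAA close to the start. Of 33469 rat promoter windows of this length, AGGTCA lay in 16.2%, TATAAA in 14.2%, CACGTG in 6.42%, CAAGGCCA in 2.19%, CAAGGTCA in 1.52%, TTATGTAA in 0.893%, TTATGCAA in 0.863% and the inverted repeat in 0.0269%. The Slc27a5 window held no match to any of them. A match is a string of letters and not a measured binding site.

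Cyp7a1, the rate-limiting enzyme, varied widely from rat to rat. Its signal was 7263, 7562 and 5417 in CUMS 1–3, 5592, 7821 and 19331 in CUMS 4–6, and 9581, 13097 and 4835 in control 1–3. The 3 groups overlapped, with the lowest liver among the controls and the highest among CUMS 4–6. The mean was 6748 ± 1162 in CUMS 1–3, 10915 ± 7373 in CUMS 4–6 and 9171 ± 4146 in control 1–3 (SD, n = 3 per group). The log2 fold change was −0.34 in CUMS 1–3 (95% interval −1.30 to 0.61, adjusted p = 0.916 from limma), so these rats allow a level from 0.407 to 1.53 times control. In CUMS 4–6 it was 0.16 (95% interval −0.79 to 1.11, adjusted p = 0.974 from limma), and −0.36 without CUMS 6. Without control 3 it was −0.75 in CUMS 1–3 and −0.24 in CUMS 4–6.

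Cyp8b1, the sterol 12α-hydroxylase that makes cholic acid, read 3674, 3297 and 3599 in CUMS 1–3, 5723, 3809.7 and 4680.1 in CUMS 4–6, and 5503, 3523 and 3514 in control 1–3. All of CUMS 1–3 lay below all of CUMS 4–6, while both groups overlapped the controls. Between the stressed groups the log2 difference, CUMS 1–3 minus CUMS 4–6, was −0.41 (95% interval −0.82 to 0.0057, adjusted p = 0.9996 from limma). Against control it was −0.21 in CUMS 1–3 and 0.19 in CUMS 4–6 (adjusted p = 0.868 and 0.896 from limma). Without control 3 these values were −0.32 and 0.09.

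Cyp7b1, the oxysterol 7α-hydroxylase of the alternative route, had the log2 fold change of largest size among the 10 genes and was also the dimmest, with a mean signal above only 49.2% of the probe sets. Its signal was 125, 49.9 and 75.6 in CUMS 1–3, 181, 68.8 and 88.1 in CUMS 4–6, and 119, 225 and 136 in control 1–3. Of the 6 CUMS livers, 4 read below every control, and CUMS 1 and CUMS 4 lay among the controls. The log2 fold change was −0.98 in CUMS 1–3 (95% interval −1.95 to −0.02, adjusted p = 0.737 from limma) and −0.58 in CUMS 4–6 (95% interval −1.55 to 0.39, adjusted p = 0.851 from limma). Over all CUMS rats the exact permutation test gave p = 0.119, two-sided and not adjusted. Cyp7b1 was the one gene of the 10 with a mean log2 signal below control in both stressed groups. Without control 3, Cyp7a1 was below control in both as well.

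The remaining 3 enzymes had the smallest log2 fold changes in CUMS 1–3 among the enzymes. Hsd3b7, which rearranges the sterol ring after 7α-hydroxylation, averaged 5276 ± 252 in CUMS 1–3, 5828 ± 191 in CUMS 4–6 and 5039 ± 730.3 in control 1–3 (SD, n = 3 per group). Its highest liver in CUMS 1–3 read 5442 and its lowest in CUMS 4–6 read 5689, so these groups did not overlap. Acox2, the peroxisomal oxidase of the bile acid side chain, averaged 14614 ± 796 in CUMS 1–3, 16528 ± 1625 in CUMS 4–6 and 14360.1 ± 2005 in control 1–3 (SD, n = 3 per group). Baat, the enzyme that conjugates bile acids with taurine or glycine, averaged 23103 ± 2519 in CUMS 1–3, 24771 ± 783 in CUMS 4–6 and 22312 ± 1762 in control 1–3 (SD, n = 3 per group). Baat read 24189 to 25661 in CUMS 4–6 and 20379 to 23828 in the controls, without overlap. For these 3 genes the log2 fold changes ran from 0.03 to 0.08 in CUMS 1–3 and from 0.15 to 0.22 in CUMS 4–6. Without control 3 they were −0.02 for Hsd3b7, −0.09 for Acox2 and −0.02 for Baat in CUMS 1–3, and 0.12, 0.09 and 0.09 in CUMS 4–6.

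Nr1h4, the bile acid receptor FXR, read 2403, 2571 and 2899 in CUMS 1–3, 3911, 3563 and 2391 in CUMS 4–6, and 3228, 2811 and 2352 in control 1–3. The 3 groups overlapped. Its log2 fold change was −0.08 in CUMS 1–3 (95% interval −0.49 to 0.32, adjusted p = 0.952 from limma) and 0.21 in CUMS 4–6 (95% interval −0.19 to 0.62, adjusted p = 0.872 from limma). These intervals span 0.713 to 1.25 times control in CUMS 1–3 and 0.877 to 1.53 times in CUMS 4–6. Without control 3 the log2 fold changes were −0.20 and 0.10.

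Nr0b2, the repressor SHP, spread the most of the 10 genes, from 736 in CUMS 4 to 4482 in CUMS 2, a 6.09-fold range over the 9 livers. Its signal was 2803, 4482 and 2181 in CUMS 1–3, 736, 3151 and 3086 in CUMS 4–6, and 1418, 2589 and 1328 in control 1–3. Of the 6 CUMS livers, 4 lay above every control, CUMS 3 lay among the controls and CUMS 4 lay below them. The log2 fold change was 0.83 in CUMS 1–3 (95% interval −0.29 to 1.95, adjusted p = 0.787 from limma) and 0.18 in CUMS 4–6 (95% interval −0.93 to 1.30, adjusted p = 0.974 from limma). Without CUMS 4 the value in CUMS 4–6 was 0.88, and without control 3 it was 0.65 in CUMS 1–3 and 0.0085 in CUMS 4–6. Without CUMS 5 or CUMS 6 the value in CUMS 4–6 was −0.17 or −0.15, so its direction rested on single livers.

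**Figure D3:**
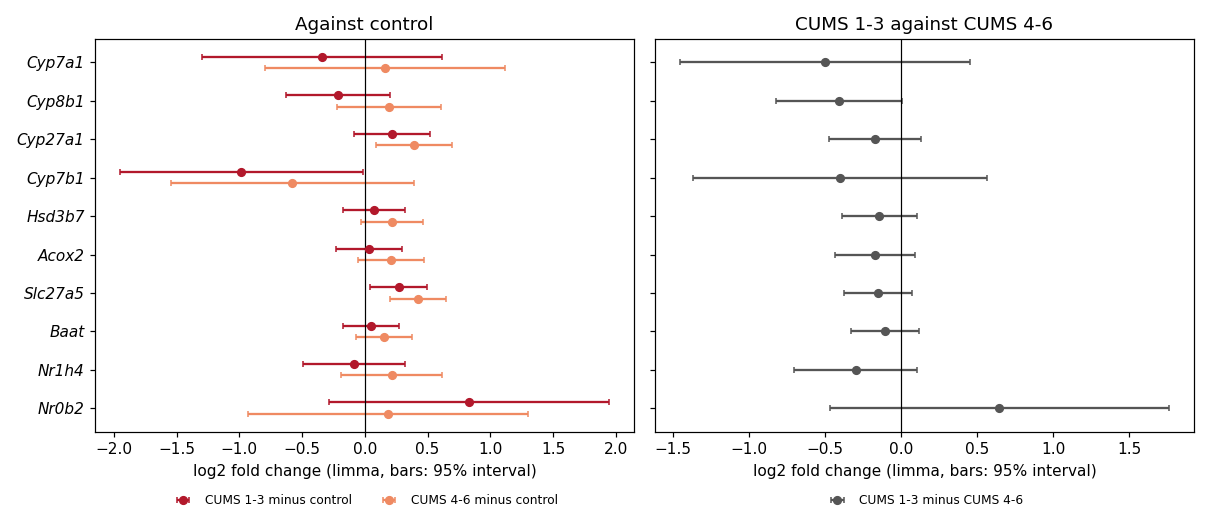
Log2 fold change of each of the 10 genes from limma, with bars for the 95% interval. The left panel shows CUMS 1–3 and CUMS 4–6 against control, and the right panel shows CUMS 1–3 against CUMS 4–6. The bars of Slc27a5 lie to the right of 0 in both stressed groups, and in the right panel 9 of 10 points lie to the left of 0.

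By limma, 0 of the 10 genes passed an adjusted p under 0.05 in any of the 4 comparisons, and 0% of all 18625 probe sets did. At an unadjusted p under 0.05 there were 2 genes in CUMS 1–3 (Slc27a5 and Cyp7b1), against 6.76% of all probe sets. There were 2 in CUMS 4–6 (Slc27a5 and Cyp27a1), against 6.28% of all, and the same pair over all CUMS rats, against 7.93% of all. Between CUMS 1–3 and CUMS 4–6 there were 0, against 2.85% of all. Groups did not overlap for 1 gene in CUMS 1–3 against control and for 3 in CUMS 4–6 against control, where 11.6% and 11.6% of all probe sets had no overlap. For all CUMS rats against control it was 1 gene, against 3.68% of all, and for CUMS 1–3 against CUMS 4–6 it was 2 genes, against 9.11% of all. With 10 genes, each of these counts differs from the share over all probe sets by 2 genes or fewer.

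The direction of the means was less even. In CUMS 4–6 the mean log2 signal of 9 of the 10 genes was above control, with a median log2 fold change of 0.20, where 46.3% of all probe sets were above control with a median of −0.021. The mean of 6 genes was above control in CUMS 1–3, with a median of 0.04 against −0.0060 over all probe sets, 48.9% of which were above control. Between the stressed groups, 9 of the 10 genes were lower in CUMS 1–3 than in CUMS 4–6, and Nr0b2 was the exception at 0.65. The median was −0.17 against 0.0059 over all probe sets, 51.3% of which were higher in CUMS 1–3. The comparisons with control share the 3 control livers, and the comparison between the stressed groups uses the same CUMS livers as they do. These counts are therefore not independent of each other. Without control 3, the mean of 3 genes was above control in CUMS 1–3 and of 8 in CUMS 4–6.

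General hepatocyte markers were counted in the same way. Of 11 measured, 10 had a mean above control in CUMS 4–6 (median log2 fold change 0.13) and 6 in CUMS 1–3 (median 0.03), and 9 were lower in CUMS 1–3 than in CUMS 4–6 (median −0.13). Without control 3 these counts were 8 in CUMS 4–6 and 2 in CUMS 1–3. Markers of stellate cells and fibroblasts had lower means than control in 10 of 11 in CUMS 1–3 and in 11 of 11 in CUMS 4–6 (medians −0.94 and −0.54, and −0.67 and −0.31 without control 3). Kupffer cell markers were lower in 8 of 8 and 7 of 8 (medians −0.46 and −0.37), and without control 3 in 8 of 8 in both groups (medians −0.35 and −0.16). Bile duct markers were lower in 5 of 5 in both groups (medians −0.62 and −0.77), and without control 3 in 3 and 4 of 5 (medians −0.07 and −0.15). Endothelial markers went the other way, with 5 of 7 above control in CUMS 1–3 and 4 of 7 in CUMS 4–6 (medians 0.10 and 0.05). Without control 3 it was 6 of 7 in both. Pericentral hepatocyte markers were above control in 6 of 9 and 9 of 9, and in 4 and 7 of 9 without control 3. Periportal hepatocyte markers were above in 7 of 11 and 9 of 11, and in 1 and 7 of 11 without control 3. The part of the liver's cell makeup in the values of the 10 genes was not tested.

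A few livers stood at the ends of the range for many of the genes. CUMS 6 was the highest of the 9 livers for 5 of the 10 genes (Cyp7a1, Cyp27a1, Hsd3b7, Slc27a5 and Baat). Control 3 was the lowest for 6 (Cyp7a1, Cyp27a1, Hsd3b7, Acox2, Slc27a5 and Nr1h4). CUMS 4 was the highest for Cyp8b1, Acox2 and Nr1h4 and at the same time the lowest for Nr0b2. CUMS 2 was the highest for Nr0b2 and the lowest for Cyp8b1 and Cyp7b1. CUMS 2 and CUMS 4 were also the livers with the highest 3′ to 5′ ratio of beta-actin, and the part of RNA quality in their values was not tested. The mean log2 signal of the 10 genes, relative to the control mean, was 0.05, 0.01 and −0.10 in CUMS 1–3, 0.07, 0.09 and 0.31 in CUMS 4–6, and 0.09, 0.18 and −0.27 in control 1–3.

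**Figure D4:**
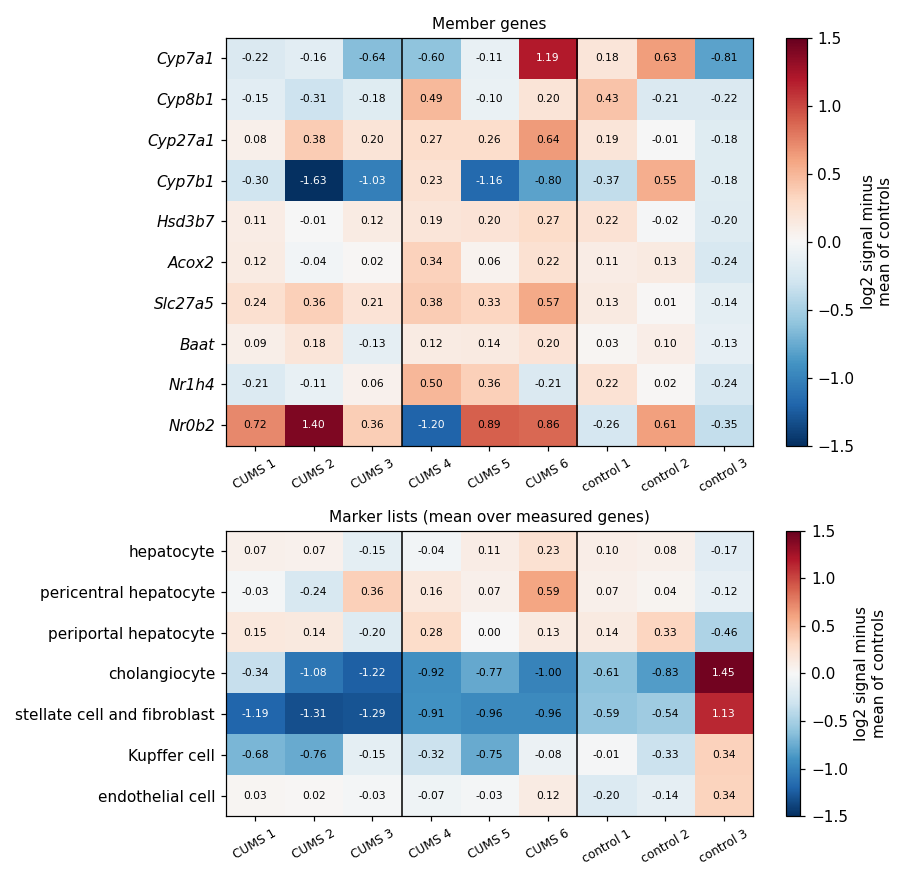
Upper panel, log2 signal of each of the 10 genes in each of the 9 livers, minus the mean of that gene over the 3 controls, as a colour scale with CUMS 1–3, CUMS 4–6 and control 1–3 from left to right. The lower panel shows marker lists of liver cell types on the same scale, each as the mean over its measured genes. In the upper panel, CUMS 6 is above the control mean for most genes and control 3 is below it for most. Nr0b2 in CUMS 4 and Cyp7a1 in CUMS 6 are among the values that lie apart from their groups.

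The 10 genes fell into steady and variable ones. The SD of log2 signal within groups was 0.82 for Nr0b2, 0.70 for Cyp7a1 and 0.63 for Cyp7b1, larger than in 97.6%, 95.8% and 93.9% of the probe sets kept. It was 0.12 for Slc27a5 and 0.12 for Baat, larger than in 10.1% of them each, and the median probe set had 0.25. Hsd3b7 and Acox2 were on the steady side at 0.13 and 0.15, and Cyp27a1, Nr1h4 and Cyp8b1 lay between at 0.19, 0.27 and 0.28. For the variable genes the intervals above are correspondingly wide. The genes also differed in brightness. Mean signals lay above 99.7% of the probe sets for Slc27a5 and for Baat, 98.2% for Cyp7a1, 92.4% for Nr0b2 and 49.2% for Cyp7b1. The part of signal level in the spread was not tested.

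As SHP represses Cyp7a1 and Cyp8b1, their relation to Nr0b2 over the 9 livers is given for each. With Cyp8b1, r was −0.656 (exact permutation p = 0.0789, adjusted p = 0.296) and rho was −0.35 (exact permutation p = 0.359, adjusted p = 0.598). Without CUMS 4 and control 1, the livers farthest from the Cyp8b1 median, r was 0.0872, so the negative value rested on those livers. It was −0.812 without control 3 alone and −0.626 with the group means removed. With Cyp7a1, r was 0.443 (exact permutation p = 0.214, adjusted p = 0.419) and rho was 0.483 (exact permutation p = 0.194, adjusted p = 0.484), and r without CUMS 6 and control 2 was 0.409. With Cyp7b1, r was −0.629 (exact permutation p = 0.0692, adjusted p = 0.283) and rho was −0.7 (exact permutation p = 0.0433, adjusted p = 0.324), and r without CUMS 2 and control 2 was −0.813. Nr1h4 and Nr0b2 had an r of −0.486 (exact permutation p = 0.2, adjusted p = 0.419) and a rho of −0.2 (exact permutation p = 0.613, adjusted p = 0.746), and r without CUMS 4 and CUMS 5 was −0.315. Without control 3 alone, r with Nr0b2 was 0.355 for Cyp7a1, −0.612 for Cyp7b1 and −0.706 for Nr1h4.

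Among 10402 other genes, the pattern most like that of Nr0b2 over the 9 arrays was that of Tsku (Pearson's r 0.962), followed by Zrsr2, Mbtd1, Eif2ak1 and Mllt1. For Cyp7a1 it was Akirin2 (r 0.951), then Odad3, Mrpl55, Gtf2e2 and Apcs. For Cyp8b1 it was Atg5 (r 0.935), then Washc5, Rbck1, Synm and Pnp. For Cyp7b1 it was Cdk5rap3 (r 0.944), then Stard3nl, Pspc1, Nelfe and Scaper. These are descriptions, the highest values among many genes over 9 points from the same arrays.

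Transport of bile acids is the step that follows synthesis. Of 16 transport genes listed, 12 were measured, and 9 had a mean above control in CUMS 1–3 (median log2 fold change 0.20) and 9 in CUMS 4–6 (median 0.27). Of these, 4 in CUMS 1–3 and 5 in CUMS 4–6 had an unadjusted p under 0.05 in the upward direction, with 0 and 1 downward, and 0 passed after adjustment in limma. Of all probe sets, 2.59% and 2.73% had such a p upward and 4.17% and 3.55% downward. The medians without control 3 were 0.21 and 0.30.

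Abcb11, the bile salt export pump of the canalicular membrane and an FXR target gene, read 6027, 6548 and 5959 in CUMS 1–3, 7976, 6164 and 6714 in CUMS 4–6, and 4934, 5293 and 4801 in control 1–3. All 6 CUMS livers lay above all 3 controls. Its log2 fold change was 0.30 in CUMS 1–3 (SE 0.11, adjusted p = 0.722 from limma) and 0.47 in CUMS 4–6 (SE 0.11, adjusted p = 0.744 from limma). Slc10a1 (NTCP), the main sodium-dependent uptake carrier of conjugated bile acids, read 22738, 25797 and 22086 in CUMS 1–3, 23270.4, 24826 and 26216 in CUMS 4–6, and 21517, 18577 and 18385.5 in control 1–3. It too had no overlap, with log2 fold changes of 0.27 and 0.35 (SE 0.10 each, adjusted p = 0.722 and 0.744 from limma). Slco1a1, a sodium-independent uptake carrier, read 6167, 6572 and 5441 in CUMS 1–3, 5969, 6164 and 5826 in CUMS 4–6, and 4514, 4534 and 4079 in control 1–3, again without overlap. Its log2 fold changes were 0.47 and 0.45 (SE 0.10 each, adjusted p = 0.532 and 0.743 from limma). Slco1a4, another uptake carrier, had log2 fold changes of 0.63 and 0.85 (SE 0.15 each, adjusted p = 0.559 and 0.373 from limma).

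Means below control were found for 3 of the 12 transport genes measured in each stressed group. The 1 with an unadjusted p under 0.05 downward, in CUMS 4–6 by limma, was Abcc3 (MRP3). This export pump of the basolateral membrane is named because of its values, and its signals were low throughout. It read 95.4, 50.2 and 128 in CUMS 1–3, 102, 24.6 and 55.6 in CUMS 4–6, and 125, 128 and 313 in control 1–3. CUMS 4–6 lay below all controls, and CUMS 3 lay among them. Its log2 fold change was −1.01 in CUMS 1–3 and −1.73 in CUMS 4–6 (SE 0.56 each, adjusted p = 0.769 and 0.744 from limma), and −0.58 and −1.29 without control 3.

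Of 18 other synthesis genes listed, 16 were measured, of which 10 had a mean above control in CUMS 1–3 and 12 in CUMS 4–6. At an unadjusted p under 0.05 there were 3 above and 2 below in CUMS 1–3, and 1 above and 1 below in CUMS 4–6. Over all probe sets the shares were 2.59% above and 4.17% below in CUMS 1–3, and 2.73% and 3.55% in CUMS 4–6. Without control 3, the counts above control were 8 and 11, with medians of 3.4e-05 and 0.08 in place of 0.04 and 0.17. Akr1d1, the 5β-reductase of the sterol ring, read 12749.7, 16095 and 10660.0 in CUMS 1–3, 13868, 14906 and 16269 in CUMS 4–6, and 11196, 8972 and 10081 in control 1–3. CUMS 4–6 lay above all controls, and CUMS 3 lay among them. The log2 fold change was 0.37 in CUMS 1–3 (SE 0.15, adjusted p = 0.733 from limma) and 0.58 in CUMS 4–6 (SE 0.15, adjusted p = 0.744 from limma). Ch25h, the cholesterol 25-hydroxylase, read 61.0, 31.4 and 51.0 in CUMS 1–3, 38.9, 70.9 and 94.3 in CUMS 4–6, and 104, 89.5 and 259 in control 1–3. The value of 259 came from control 3, and the signals of this gene were low throughout. Its log2 fold changes were −1.54 and −1.07, and −1.07 and −0.60 without control 3. Abcd3, a peroxisomal carrier of bile acid precursors, had 0.45 and 0.23 (SE 0.14 each), and 0.32 and 0.10 without control 3. Hsd17b6, a dehydrogenase of steroids, had −0.30 and −0.18 (SE 0.12 each), and −0.40 and −0.28 without control 3. Adjusted p for these 3 genes lay between 0.698 and 0.832 in limma.

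The regulators of the route were split evenly in CUMS 1–3, with 10 of 20 measured above control and 10 below (26 listed), and 12 were above and 8 below in CUMS 4–6. Without control 3, 8 were above and 12 below in both groups (medians −0.10 and −0.08), so the direction of the count in CUMS 4–6 rested on that liver. Hnf4a, a hepatocyte nuclear factor that drives Cyp7a1 and Cyp8b1, had log2 fold changes of 0.03 and −0.02 (SE 0.17 each), and −0.19 and −0.24 without control 3. Nr5a2 (LRH-1), the receptor through which SHP acts on Cyp7a1, had 0.26 and 0.06 (SE 0.13 each), and Fgfr4, the receptor for the intestinal signal that lowers Cyp7a1, had −0.05 and 0.01 (SE 0.12 each). Adjusted p for these 3 genes in CUMS 1–3 lay at 0.988, 0.749 and 0.966 from limma. Nr1i3 (CAR), a receptor of bile acid and drug metabolism, read 518, 744 and 766 in CUMS 1–3, 365, 619 and 720.4 in CUMS 4–6, and 384, 212 and 388 in control 1–3. CUMS 1–3 did not overlap the controls, whereas CUMS 4 did. Mafg, a transcriptional repressor of bile acid synthesis that FXR induces, had log2 fold changes of 0.45 and 0.36, and Gps2, a corepressor subunit, had −0.45 and −0.24 (SE 0.16 each, adjusted p from 0.722 to 0.833 in limma).

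The listed target genes of FXR, 17 measured of 21 and Nr0b2 and Abcb11 among them, had a mean above control in 10 genes in CUMS 1–3 and in 14 in CUMS 4–6, with median log2 fold changes of 0.09 and 0.11. The counts without control 3 were 10 and 12 and the medians 0.05 and 0.06. At an unadjusted p under 0.05 there were 3 above control in CUMS 1–3 and 5 in CUMS 4–6, with 0 below. Of all probe sets, 2.59% and 2.73% had such a p upward and 4.17% and 3.55% downward. Without control 3 the counts in either direction were 6 and 3. Of the 5 genes in CUMS 4–6, Abcb11 and Abcb4 were also among the transport genes and Mafg among the regulators. Ceacam1, a cell adhesion protein of hepatocytes, read 4712, 5511 and 4353 in CUMS 1–3, 4194, 4329 and 4135 in CUMS 4–6, and 3417, 3714 and 3546 in control 1–3, with no overlap. These values are from the brightest of its 3 probe sets. Its log2 fold changes were 0.44 and 0.25 (SE 0.10 each, adjusted p = 0.559 and 0.778 from limma). Osgin1, an oxidative stress gene, read 2917, 1832 and 2717 in CUMS 1–3, 3645, 3081 and 4240.2 in CUMS 4–6, and 1275, 1915 and 3560 in control 1–3, where control 3 lay well above the other controls. Its log2 fold changes were 0.25 and 0.82 (SE 0.31 each, adjusted p = 0.918 and 0.765 from limma), and 0.64 and 1.21 without control 3.

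Of 12 clock genes, whose products include regulators of Cyp7a1, 8 were above control in CUMS 1–3 and 3 in CUMS 4–6. Without control 3 these counts were 4 and 2, and the median log2 fold change in CUMS 1–3 was −0.03 in place of 0.13, so that direction rested on control 3. Bhlhe41 (DEC2), a repressor of the clock, read 91.4, 113 and 28.7 in CUMS 1–3, 100.4, 80.0 and 60.2 in CUMS 4–6, and 323, 117 and 419 in control 1–3. All 6 CUMS livers read below all 3 controls, by a narrow margin from control 2. Its log2 fold changes were −1.91 and −1.68 (SE 0.56 each, adjusted p = 0.651 and 0.744 from limma). Of 18 genes of cholesterol supply, 10 were measured, and 9 were above control in CUMS 1–3 and 7 in CUMS 4–6. At an unadjusted p under 0.05 there were 0 in either, against 6.76% and 6.28% of all probe sets.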

How the data were processed

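Liver RNA was hybridised to Affymetrix rat arrays, 1 per rat. The authors made the deposited signal intensities with MAS 5.0, on a linear scale with each array's trimmed mean near 500.2, so levels are relative to the whole array. Groups were taken from the symptom labels. Signals below 1 (586 of them) were set to 1 and put on the log2 scale, and 57 control probe sets and the lower 40% of the rest by mean log2 signal were left out. The 3 groups were fitted together with limma 3.58.1 in R 4.3.3 (variance trend, 6 residual degrees of freedom), and p was adjusted by Benjamini-Hochberg over 18625 probe sets. Exact permutation tests used Python 3.11.15; with 3 rats against 3 such a test cannot go below 0.1, so none was made there. The fits were tested on simulated data. Annotation gave 20826 probe sets 1 symbol, 436 several and 9780 none, and 3 listed genes were matched through older symbols. A listed gene with several probe sets was represented by the one with the highest mean log2 signal, and its other probe sets are not described. Besides Ceacam1, this applies to Hnf4a and Nr5a2 (3 probe sets each) and to Slco1a4, Akr1d1 and Mafg (2 each) among the genes described. Other listed genes were drawn from the 3 with the smallest p of their list in a stressed group and from genes needed as background, and not all of these are described. The 10 genes, the lists, the tests and the alternatives (other scaling, filters, pseudocount, variance models, replicate block, the ANOVA thresholds of the study, leaving out each rat) were chosen with earlier results of these data known. The number of arrays limits the precision. Each rat of a group is a separate animal, and litters are not given in the sources used here. Promoter windows were taken from RefSeq.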

Additional observations from a re-analysis of the deposited data

Results flagged for a closer look

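Among the 6 CUMS rats, single livers lay far from the others in 2 of the 10 genes. Cyp7a1 read 19331 in CUMS 6, and the gap to the next CUMS liver took 0.711 of the range of the 6 on the log2 scale. Baat read 20325.5 in CUMS 3, below the other 5, with a gap of 0.668 of the log2 range. Both gaps exceed Dixon's 95% critical value for 6 samples, which chance passes in about 1 in 20 groups.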

How the results depend on the processing

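The number of the 10 genes past an adjusted p under 0.05 was 0 in each comparison under every alternative run, with adjusted p between 0.297 and 1. The numbers that the labels give the rats did not pair them (r of 0.0030, −0.049 and 0.14 between same-numbered rats), and with the replicate number as a replicate block, CUMS 1–3 against control had 2 genes at an unadjusted p under 0.05 and 6 above control, as without it. The count at an unadjusted p under 0.05 in CUMS 1–3 against control (2) was 1 with quantile normalization, no signal filter, the upper 40% of signals, array weights or the ANOVA of the study, and 0 with median centring or no variance trend. Cyp7b1, 1 of the 2 genes counted in the main fit, was left out of the upper 40% of signals by its low signal. That setting therefore covers only the other genes. With that ANOVA it was 1 in each other comparison, where the study's fold and p thresholds together passed 0 genes. Over all CUMS rats it was also 1 without the variance trend, and in CUMS 1–3 against CUMS 4–6 it was 1 with no filter or with only the groups compared. The number with a higher mean in CUMS 1–3 than in CUMS 4–6 was 2 with quantile normalization.

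Apart from leaving out rats, the log2 fold change changed sign in 4 values and kept it in 362. The 4 were Acox2 in CUMS 1–3 (−0.0072) and Nr1h4 over all CUMS rats (−0.023) with array weights, Cyp8b1 over all CUMS rats (0.043) with median centring, and Baat between the stressed groups (0.031) with quantile normalization. The cause was not tested. Leaving out each rat in turn changed 21 signs and kept 339. In CUMS 1–3 the ranges were −0.32 to 0.00057 for Cyp8b1, −0.02 to 0.18 for Hsd3b7, −0.088 to 0.10 for Acox2, −0.019 to 0.14 for Baat and −0.20 to 0.025 for Nr1h4. In CUMS 4–6 they were −0.36 to 0.54 for Cyp7a1 and −0.17 to 0.88 for Nr0b2. Over all CUMS rats they were −0.50 to 0.22 for Cyp7a1, −0.12 to 0.20 for Cyp8b1, −0.00071 to 0.19 for Acox2 and −0.054 to 0.17 for Nr1h4, and between the stressed groups −0.88 to 0.014 for Cyp7a1 and −0.049 to 0.9999 for Nr0b2. The count at an unadjusted p under 0.05 then ran from 0 to 3 in CUMS 1–3, 1 to 4 in CUMS 4–6, 1 to 4 over all CUMS rats and 0 to 1 between the stressed groups. Genes above control ran from 3 to 8, 7 to 9 and 5 to 8, and those higher in CUMS 1–3 than in CUMS 4–6 from 0 to 2. Averaging all probe sets of a gene was not run, as each has 1. Slc27a5 kept its direction in every setting run.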
